A study of Rattus norvegicus with 36 samples.

Results

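Sgk1, Fkbp5 and Cdkn1a are 3 genes known to be induced by glucocorticoid hormones, and their RNA was followed across the dorsal striatum of rats given saline, a last day of cocaine, or cocaine throughout. They were picked by their Ensembl IDs, ENSRNOG00000011815 for Sgk1, ENSRNOG00000022523 for Fkbp5 and ENSRNOG00000000521 for Cdkn1a. These are 3 of the 32402 gene IDs counted, and all 3 were among the 15884 genes that passed the filter on low counts. The Sal–Sal group received saline 15 times. By its labels the Sal–Coc group received saline 13 times and then cocaine 3 times, and the Coc–Coc group received cocaine 15 times. These labels give Sal–Coc rats more injections than the others. The paper instead describes 3 injections a day over 5 days for the rats of all groups. The label count of Sal–Coc does not match that design, and the mismatch was not resolved. All were Sprague-Dawley rats of 8 weeks, killed a day after the last injection, so that the comparisons concern RNA left after a day without drug. Each group was 3 pools, numbered 5, 6 and 7, each from the tissue of a pair of rats, and each pool was sequenced as 4 technical replicates, giving 36 samples in all.

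Glucocorticoids, the steroid hormones released by the adrenal gland under stress, enter cells and bind the glucocorticoid receptor, which then moves to the nucleus and binds DNA. Sgk1 encodes a serine/threonine kinase, named for its induction by serum and glucocorticoids, that acts on ion channels and transporters. Fkbp5 encodes a co-chaperone of the heat shock protein Hsp90 that lowers the affinity of the receptor for its hormone, which closes a negative feedback loop. Cdkn1a encodes an inhibitor of cyclin-dependent kinases that arrests the cell cycle and is also a classical target of p53. In the brain, glia and endothelial cells as well as neurons express such genes. In RNA from whole tissue, fewer cells of a type and less RNA per cell cannot be told apart. The label of dorsal striatum was not checked against marker genes, since the deposited tables list IDs without symbols.

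The start sites of these genes are shown because the receptor and p53 act by binding DNA. The sequences are RefSeq promoter windows of the rat assembly GRCr8, each of 300 bases with 250 before and 50 after a start, written 5′ to 3′ on the strand of the gene. Sgk1 has 3 such windows on chromosome 1, minus strand, at chr1:24807182-24807481, chr1:24805521-24805820 and chr1:24804782-24805081, and the last is printed here. Fkbp5 has 1 at chr20:6543506-6543805, minus strand, and Cdkn1a has 1 at chr20:7150682-7150981, plus strand. Capitals mark a TATA box (TATAAA) in Sgk1 and a p53 half-site in Cdkn1a, and Fkbp5 has no motif marked.
Sgk1: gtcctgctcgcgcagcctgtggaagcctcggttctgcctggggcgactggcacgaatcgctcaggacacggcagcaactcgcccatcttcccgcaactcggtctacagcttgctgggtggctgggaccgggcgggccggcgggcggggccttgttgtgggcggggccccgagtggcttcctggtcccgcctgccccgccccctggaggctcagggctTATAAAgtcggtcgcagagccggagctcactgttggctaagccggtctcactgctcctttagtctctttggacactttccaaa
Fkbp5: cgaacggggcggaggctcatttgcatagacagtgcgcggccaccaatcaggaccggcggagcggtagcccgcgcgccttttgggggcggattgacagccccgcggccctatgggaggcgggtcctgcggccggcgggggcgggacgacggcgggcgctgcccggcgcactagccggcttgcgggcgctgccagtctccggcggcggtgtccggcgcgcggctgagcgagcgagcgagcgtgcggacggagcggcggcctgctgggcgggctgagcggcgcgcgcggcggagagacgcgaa
Cdkn1a: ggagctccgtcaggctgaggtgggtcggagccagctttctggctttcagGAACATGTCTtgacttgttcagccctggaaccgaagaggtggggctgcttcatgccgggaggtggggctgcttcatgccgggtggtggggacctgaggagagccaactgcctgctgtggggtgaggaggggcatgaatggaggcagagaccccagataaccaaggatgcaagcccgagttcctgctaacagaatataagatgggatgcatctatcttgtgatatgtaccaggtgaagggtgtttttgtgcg

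The Fkbp5 window was 77% G and C, more than 97.9% of the 33469 windows of the table, whose median was 51.7%. The Cdkn1a window was at 56.7%, and the Sgk1 windows were at 40.7%, 51.7% and 66%. The glucocorticoid response element, searched as AGAACA, any 3 bases and TGTTCT, which reads alike on both strands, was in 0 of the 5 windows of these genes and in 0.0149% of all windows. Its half-site AGAACA, on either strand, was also in 0 of the 5, against 20.7% of all windows. A match to the p53 half-site consensus lay 201 bases before the Cdkn1a start, as GAACATGTCT, and 7.98% of all windows held such a match. TATAAA, on either strand, lay 33 and 55 bases before 2 of the Sgk1 starts and was in 14.2% of all windows. A match is a run of letters and not a site shown to be bound. The lack of one says only that these letters are not in this window, and the known response elements of Fkbp5 lie in its introns.

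Total counts per pool ran from 29870775 to 39493867, and technical replicates of the same pool agreed within about sampling noise, with a mean chi-square per degree of freedom between 1.005 and 1.028. They were therefore summed. Pool 5 of Coc–Coc stood apart from the others: it held the highest level of 25.4% of all genes and the lowest of 22%, and 624 genes were 2-fold or more away from their median elsewhere, where single other pools had 129 to 263 such genes. The Coc–Coc means, SDs and CVs inside groups, and the differences that moved most with this pool are also given without it. Levels are given as CPM, the count scaled to the size of its library, with TMM factors. For the genes in question the 4 technical replicates of a pool differed at an unadjusted chi-square p below 0.05 in 3 of 27 checks, of which 0 were for Sgk1, 2 for Fkbp5 and 1 for Cdkn1a. Over all genes checked, the share below 0.05 was 4.95% to 5.48% per pool.

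Sgk1 had nearly the same mean in all 3 groups, and its pools spread widely inside each of them. In Sal–Sal its level was 125, 138 and 102 CPM in pools 5, 6 and 7. In Sal–Coc it was 100.3, 179 and 103 CPM, and in Coc–Coc it was 153, 122 and 101 CPM. Pool 6 of Sal–Coc was the highest of the 9 and pool 5 of Coc–Coc was next, while each group held at least 1 pool near the lowest level. The Sal–Sal mean was 122 ± 18.4 CPM (SD, n = 3 pools, as for all group means), that of Sal–Coc 127 ± 44.7 and that of Coc–Coc 125 ± 26.1, or 111 without its pool 5. The highest pool exceeded the lowest 1.78-fold, on counts between 2927 and 6685, where counting error alone gives a coefficient of variation (CV) of 1.22% to 1.85%.

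Fkbp5 had the lowest CV over the 9 pools, 16.9% beside 22.1% for Sgk1, and the widest separation of groups relative to its spread. In Sal–Sal its level was 87.2, 97.6 and 103 CPM in pools 5, 6 and 7. In Sal–Coc it was 102, 124 and 104 CPM. In Coc–Coc it was 63.8, 94 and 89 CPM. Every Sal–Coc pool lay above every Coc–Coc pool, and the Sal–Sal pools overlapped both. The Sal–Sal mean was 95.8 ± 7.82 CPM, that of Sal–Coc 110 ± 12.2 and that of Coc–Coc 82.2 ± 16.2, or 91.5 without its pool 5. Pool 5 of Coc–Coc, the pool that stood apart across all genes, was the lowest by a wide gap, and the highest was again pool 6 of Sal–Coc. The counts behind these levels lay between 2594 and 4635.

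Cdkn1a had the largest differences between pools and the fewest reads. In Sal–Sal its level was 10.5, 11.9 and 9.47 CPM in pools 5, 6 and 7. In Sal–Coc it was 7.23, 19.3 and 5.16 CPM. In Coc–Coc it was 10.7, 5.1 and 5.14 CPM. The Sal–Sal pools lay close together, whereas 4 of the 6 cocaine pools lay below every Sal–Sal pool, 1 lay within their range and 1 lay far above them. Across all genes tested, 16.5% had at least 4 of the 6 cocaine pools below every Sal–Sal pool. The Sal–Sal mean was 10.6 ± 1.22 CPM, that of Sal–Coc 10.6 ± 7.61 and that of Coc–Coc 6.97 ± 3.2, or 5.12 without its pool 5. The highest pool exceeded the lowest 3.78-fold. Counts ran from 172 to 720 per pool, and the counting error of 3.73% to 7.62% (CV) was small beside the CV of 48.5% over the 9 pools.

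**Figure D1:**
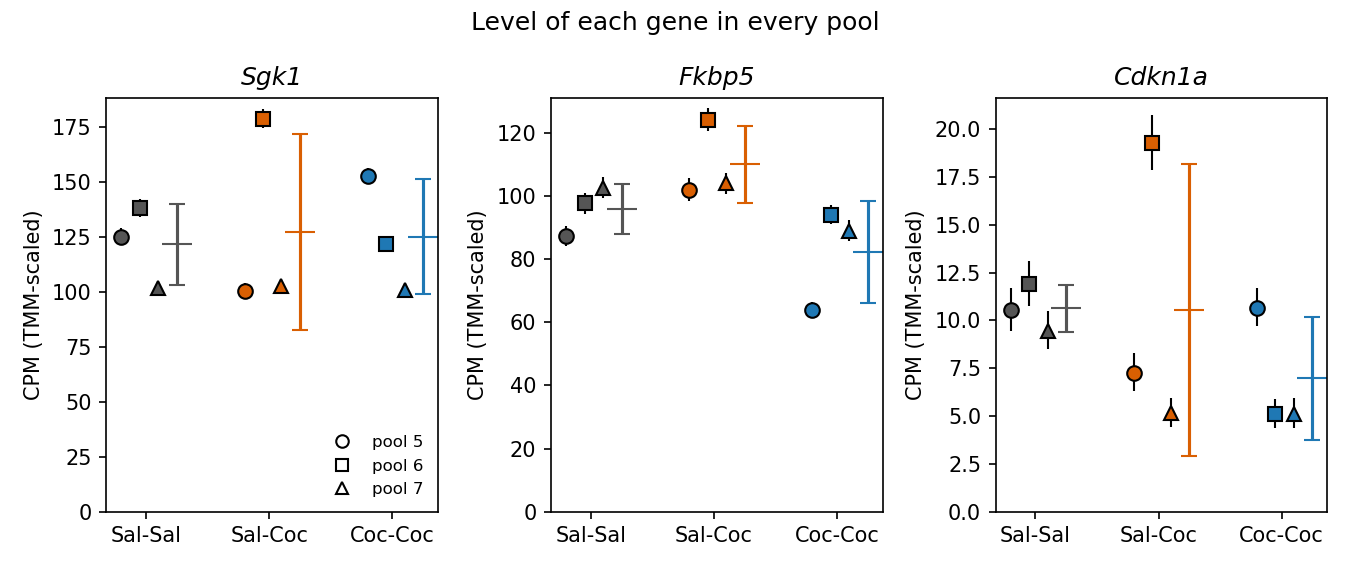
Level of Sgk1, Fkbp5 and Cdkn1a in CPM (TMM-scaled, vertical axes from 0) in every pool, with point shapes for pools 5, 6 and 7, thin lines for the 95% counting interval and coloured bars for the group mean ± SD (n = 3). All 3 genes were highest in pool 6 of Sal–Coc, and the Sal–Coc and Coc–Coc pools separate for Fkbp5 only.

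The comparison of Sal–Coc with Sal–Sal asks what a single day of cocaine left in the tissue a day later. None of the 3 genes passed the threshold of an adjusted p of 0.05 in edgeR's quasi-likelihood test, where 0 of the 15884 genes (0%) did, and 1265 (7.96%) had an unadjusted p below 0.05. DESeq2 called 56 of 16083 genes (0.348%), and none of these 3. The pools of the groups overlapped for all 3, where 18.4% of all genes had no overlap. The log2 fold change of Sgk1 was 0.07 ± 0.23 (SE, edgeR adjusted p = 0.965). It was 0.20 ± 0.14 for Fkbp5 (edgeR adjusted p = 0.766), with a 95% interval of −0.11 to 0.51. All 3 Sal–Coc pools of Fkbp5 lay above the Sal–Sal mean, and the share of all genes with this pattern was not counted. For Cdkn1a it was −0.0056 ± 0.44 (edgeR adjusted p = 0.997), and its interval of −0.99 to 0.98 leaves room for changes of up to about 1.97-fold. Sgk1 and Cdkn1a each moved most with pool 6 of Sal–Coc. Without it the Sgk1 difference was −0.27 and the Cdkn1a difference −0.79, both still short of the threshold (edgeR adjusted p from 0.689 to 1 for Sgk1 and from 0.515 to 1 for Cdkn1a over all alternatives). The sign of Sgk1 also turned without pool 7 of Sal–Sal, to −0.05. That of Cdkn1a turned without pool 6 of Sal–Sal, to 0.08, and without pools 5 and 7 of Sal–Coc, to 0.20 and 0.32.

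In Coc–Coc against Sal–Sal, which asks what 15 cocaine injections left, edgeR again called 0 of 15884 genes (0%), with 1141 (7.18%) at an unadjusted p below 0.05, and DESeq2 called 23 of 17439 (0.132%). The pools overlapped for all 3 genes, against no overlap in 12.6% of the table. Sgk1 differed by 0.04 ± 0.23 on the log2 scale (SE, edgeR adjusted p = 0.972), with an interval of −0.47 to 0.55. Fkbp5 differed by −0.22 ± 0.14 (edgeR adjusted p = 0.718), and without pool 5 of Coc–Coc the difference was −0.07. Cdkn1a differed by −0.60 ± 0.45 (edgeR adjusted p = 0.747), with an interval of −1.60 to 0.39, and without the same pool the difference was −1.05, also short of the threshold. Leaving out that pool thus moved these 2 genes in opposite ways, since it was the lowest Coc–Coc pool for Fkbp5 and the highest for Cdkn1a. For Sgk1 the sign turned without it, to −0.13.

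Coc–Coc against Sal–Coc compares repeated with single exposure. EdgeR called 0 of 15884 genes (0%), with 1100 (6.93%) at an unadjusted p below 0.05, and DESeq2 called 2 of 23325 (0.00857%). Fkbp5 was the one gene of the 3 whose pools did not overlap in any comparison, and it was lower in Coc–Coc by 0.42 ± 0.14 on the log2 scale, a fold of 0.748 with a 95% interval of 0.603 to 0.927. Pools failed to overlap in this comparison for 10.6% of all genes, and for 5.55% with Coc–Coc the lower group. The unadjusted edgeR p of Fkbp5 was 0.0129, the rank of 225 among 15884 genes, and the adjusted p was 0.692, where 2.88% of all genes had an unadjusted p below 0.05 with Coc–Coc the lower group. An exact two-sided permutation test over the 6 pools gave p = 0.1, the smallest that 3 against 3 pools allow. Without pool 5 of Coc–Coc the log2 difference was −0.27 (edgeR adjusted p = 0.88), and without pool 6 of Sal–Coc it was −0.32 (edgeR adjusted p = 0.724). Voom of limma with quality weights gave −0.25 (adjusted p = 0.577). Sgk1 differed by −0.02 ± 0.23 (edgeR adjusted p = 0.987) and Cdkn1a by −0.60 ± 0.45 (edgeR adjusted p = 0.735). Without pool 6 of Sal–Coc both turned sign, to 0.30 for Sgk1 and 0.18 for Cdkn1a. Without pool 5 of Coc–Coc both kept their sign, at −0.19 for Sgk1 (edgeR adjusted p = 0.937) and −1.05 for Cdkn1a (edgeR adjusted p = 0.88).

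Over the 9 combinations of gene and comparison, the exact two-sided permutation p over 6 pools ran from 0.1 to 1. The 3 comparisons share groups, so that the values of a gene in them are not independent. In each comparison the median size of the log2 difference over all genes was 0.101 to 0.106, with a median SE of 0.122. The SEs of Sgk1 and Cdkn1a, 0.23 and about 0.45, were thus wide for this table, and that of Fkbp5, 0.14, was near its middle. Part of this width came from pool 6 of Sal–Coc. Without it the SEs for Coc–Coc against Sal–Sal were 0.15 for Sgk1 and 0.28 for Cdkn1a.

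**Figure D2:**
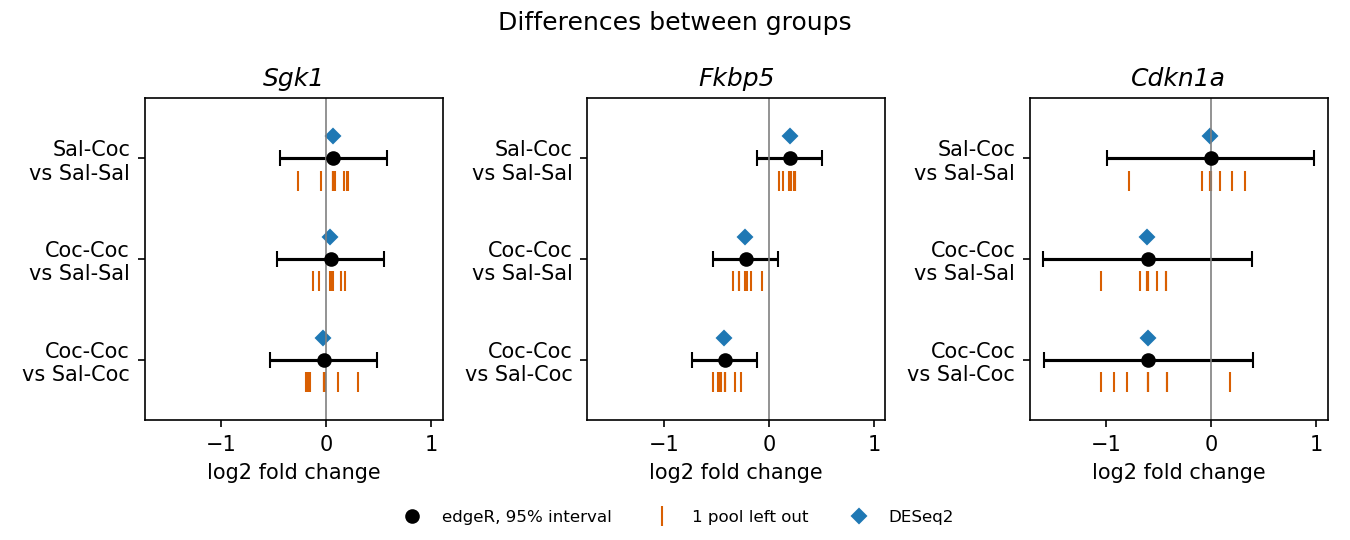
Difference between groups for each gene on the log2 scale (horizontal axis), first-named group minus second, with the edgeR value and its 95% interval (black), the value with each pool left out in turn (orange ticks) and DESeq2 (blue). The Fkbp5 interval for Coc–Coc vs Sal–Coc, −0.73 to −0.11, is the single one that leaves out 0 before adjustment. Its values with a pool left out all stay below 0, which follows from pools that do not overlap and is no further support.

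Cdkn1a and Sgk1 varied more between pools of the same group than most genes did. The SD of log2 CPM inside groups was 0.673 for Cdkn1a, higher than in 97.5% of the genes tested. It was 0.348 for Sgk1, higher than in 84.9%, and 0.208 for Fkbp5, higher than in 65.2%. The median over all genes was 0.151. Among the 13980 genes with a mean of at least 1 CPM, the share with a lower SD was 98.9% for Cdkn1a, 92.1% for Sgk1 and 73.4% for Fkbp5. EdgeR's biological CV was 37.5% for Cdkn1a where its trend at that abundance was 15.2%. For Sgk1 it was 19.8% against 9.7%, and for Fkbp5 12.5% against 9.61%. Without pool 5 of Coc–Coc the SD inside groups was 0.629 for Cdkn1a, 0.342 for Sgk1 and 0.127 for Fkbp5, where the median gene had 0.125 and 97.7%, 87.7% and 50.8% of genes had a lower SD. These SDs were not computed without pool 6 of Sal–Coc, the highest pool for Cdkn1a and Sgk1, so that how far they rest on it is not shown.

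With all pools included, each of the 3 genes had its lowest CV in Sal–Sal, and this order did not hold without pool 5 of Coc–Coc. For Cdkn1a the CV of CPM was 11.4% under saline, 72.1% in Sal–Coc and 46% in Coc–Coc. For Sgk1 it was 15.2%, 35.1% and 20.9%, and for Fkbp5 8.17%, 11.1% and 19.7%. Sal–Sal was also the group of lowest CV for 45% of all genes tested, and a median gene had a CV of 7.23% there, 8.09% in Sal–Coc and 11.5% in Coc–Coc. Without pool 5, the CV between the remaining 2 Coc–Coc pools was 0.522% for Cdkn1a, 13.5% for Sgk1 and 3.9% for Fkbp5, each below that of Sal–Sal, with a median of 7.06% over all genes. The CVs of Sal–Coc were not computed without its pool 6. A difference in spread between groups was not tested.

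**Figure D3:**
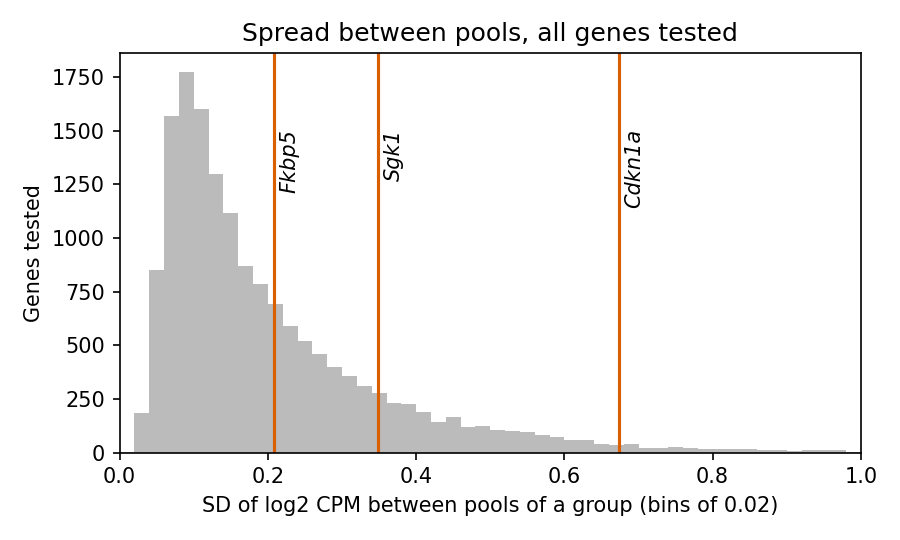
Number of genes (vertical axis) by the SD of log2 CPM between pools of the same group (horizontal axis, bins of 0.02, genes with an SD of 1 or more not drawn), with orange lines at the 3 genes. Fkbp5 at 0.208 lies near the bulk, Sgk1 at 0.348 in the upper slope and Cdkn1a at 0.673 in the far tail.

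Sgk1 and Cdkn1a were high and low in many of the same pools, whereas Fkbp5 followed neither. Over the 9 pools the log2 CPM of Sgk1 and Cdkn1a had a Pearson r of 0.79 (exact permutation p = 0.0109, Benjamini-Hochberg 0.0328 over the 3 pairs) and a Spearman rho of 0.733 (exact permutation p = 0.0311, Benjamini-Hochberg 0.0934). Only 0.651% of genes had a higher r with Sgk1 than Cdkn1a had. After the group means were subtracted, r was 0.914 over all 9 pools, and this value was not computed with pools left out. Without the 2 pools farthest from the median of Sgk1, pool 6 of Sal–Coc and pool 5 of Coc–Coc, r was 0.537 (exact permutation p = 0.179) over 7 pools and rho was 0.464 (exact permutation p = 0.302), so that the p below 0.05 rests on those pools, while 7 pools over a narrower range give less room to detect a relation.

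The r of Sgk1 with Fkbp5 was −0.06 (exact permutation p = 0.892) with a rho of −0.07 (exact permutation p = 0.88), and without the same 2 pools r was −0.373 (exact permutation p = 0.365). The r of Fkbp5 with Cdkn1a was 0.165 (exact permutation p = 0.693) with a rho of 0.133 (exact permutation p = 0.744), and without them r was −0.03. Adjusted over the 3 pairs, the p of both values of r was 0.892 and that of both values of rho 0.88. Pool 5 of Coc–Coc, which stood apart across all genes, held the next to highest Sgk1 and the lowest Fkbp5. Pool 6 of Sal–Coc, by contrast, held the highest level of both.

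**Figure D4:**
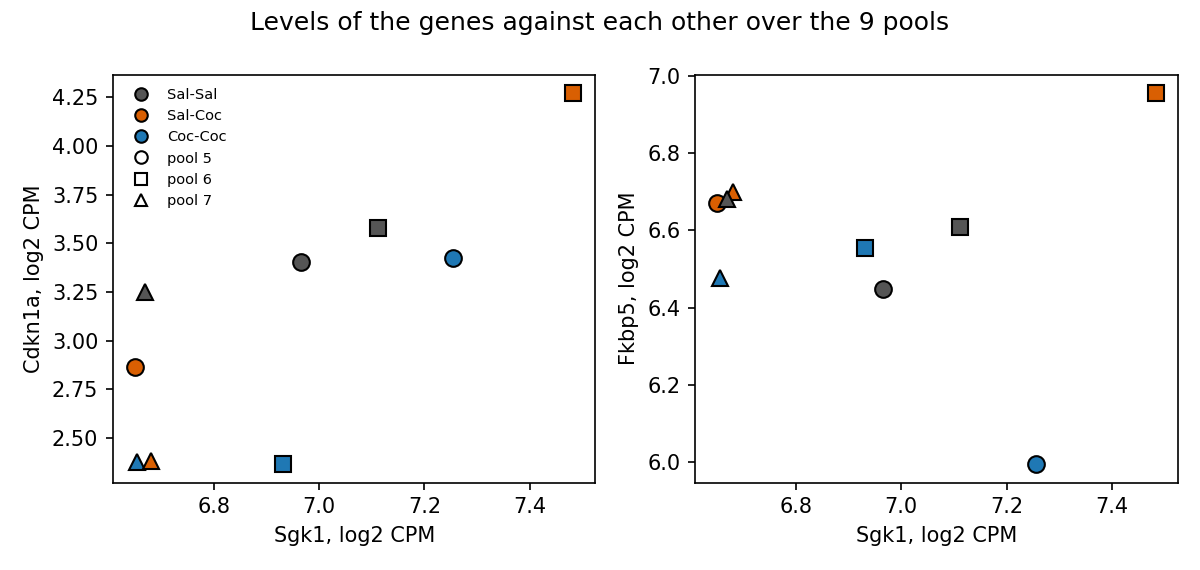
Log2 CPM of Cdkn1a (left) and Fkbp5 (right) against that of Sgk1 in the 9 pools, coloured by group and shaped by pool number. Sgk1 and Cdkn1a reach their highest levels together in pool 6 of Sal–Coc, and pool 5 of Coc–Coc sits at high Sgk1 and low Fkbp5.

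Ratios of counts inside a pool do not depend on the scaling of libraries, and the pool with the highest value was not the same in all of them. Sgk1 had 1.43, 1.42 and 0.992 counts per count of Fkbp5 in pools 5, 6 and 7 of Sal–Sal. The ratio was 0.985, 1.44 and 0.987 in Sal–Coc, and 2.39, 1.3 and 1.13 in Coc–Coc. The value of 2.39 in pool 5 of Coc–Coc was the highest, and the other 8 pools lay between 0.985 and 1.44.

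For each 100 counts of Sgk1 there were 8.44, 8.61 and 9.3 counts of Cdkn1a in Sal–Sal. In Sal–Coc there were 7.21, 10.8 and 5.04, and in Coc–Coc 6.99, 4.18 and 5.1. Differences in these ratios between groups were not tested. For each 100 counts of Fkbp5 there were 12.1, 12.2 and 9.23 counts of Cdkn1a in Sal–Sal. The 6 cocaine pools ranged on both sides of these, with 7.1, 15.5 and 4.97 in Sal–Coc and 16.7, 5.43 and 5.78 in Coc–Coc.

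The genes whose pattern was most like each of the 3 were sought by Pearson r of log2 CPM over the 9 pools, among the 13980 genes with a mean of at least 1 CPM. The closest to Sgk1 was ENSRNOG00000018915 at r = 0.948, and the fifth closest had 0.92. The closest to Fkbp5 was ENSRNOG00000009571 at 0.986, with means of 216 CPM in Sal–Sal, 248 CPM after the single cocaine day and 178 CPM in Coc–Coc, and the fifth had 0.957. The closest to Cdkn1a was ENSRNOG00000001825 at 0.978, and the fifth had 0.917. Without pool 5 of Coc–Coc the r of these pairs was 0.956 for Sgk1, 0.958 for Fkbp5 and 0.978 for Cdkn1a. A median gene of this table found its closest match at 0.961 over 9 pools, so that values of this size were usual. Such closest matches were weaker than that of Sgk1 in 28.7% of genes, than that of Cdkn1a in 79.7% and than that of Fkbp5 in 92.3%.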

How the data were processed

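Poly(A) RNA of 36 samples was read as single reads from stranded libraries. The deposited files hold raw counts per Ensembl gene, which the authors made by trimming tails, dropping short and low-quality reads, aligning with STAR, removing reads that aligned to more than 1 place, and counting with HTSeq 0.5.3. Whether counting used the strand is not given in the sources used here.

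Counts of technical replicates a to d were compared by chi-square wherever a gene averaged 10 counts or more per technical replicate, then summed per pool. EdgeR 4.0.16 (R 4.3.3) kept genes by filterByExpr (minimum count 10, minimum total 15), scaled by TMM (factors 0.962 to 1.04), and fitted all 9 pools in 3 groups with no covariate. The quasi-likelihood F-test was two-sided, with Benjamini-Hochberg adjustment over all genes tested and a threshold of 0.05. Log2 CPM used a prior count of 2. A count of 3, the floor of detection, was 0.0738 to 0.103 CPM. Floors and intervals cover counting error only. The fit was tested on simulated data. Alternatives were DESeq2 1.42.0, edgeR's likelihood ratio test, voom of limma 3.58.1 with quality weights, RLE and upper-quartile factors, other filters, fits to 6 pools, the pool number as a block, technical replicate a alone, and each pool left out. Permutations were exact, with scipy 1.17.1.

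The 3 genes, the gene lists and the tests were chosen with earlier results of these data known. The genes to be named were these 3, 16 further glucocorticoid, kinase and cell cycle genes, members of 13 lists (157 symbols) by their p, and the 5 genes most alike to each of the 3, of which only the closest is printed. The RefSeq gene table at hand matched 0 of the 32402 IDs, so the further genes, lists and cell type markers were not run. Promoter windows were matched by symbol, for 3 of 3 genes.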

Additional observations from a re-analysis of the deposited data

Results flagged for a closer look

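Fkbp5 lay above the Sal–Sal mean in every Sal–Coc pool and below it in every Coc–Coc pool, so that the differences of both cocaine groups from the shared Sal–Sal pools had opposite signs. This form of difference was looked for after the levels had been seen. The difference itself, Coc–Coc minus Sal–Coc, was −0.42 on the log2 scale, with an unadjusted edgeR p of 0.0129 and an adjusted p of 0.692, so that it did not pass the threshold. Samples far from the others of their group were not looked for by a test, since each group had 3 pools.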

How the results depend on the processing

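Over 180 refits of the 9 differences (20 alternatives each), 0 passed an adjusted p of 0.05, 166 kept their direction and 14 turned it. The 60 refits of Fkbp5 all kept their direction. For Coc–Coc against Sal–Coc, leaving out a pool could not turn it, since the pools of these groups did not overlap. Below, the saline comparison of Sal–Coc comes first, that of Coc–Coc second and Coc–Coc against Sal–Coc last. Under voom with quality weights Sgk1 turned sign in the first, to −0.0555, and in the last, to 0.0725. Voom also gave smaller differences for Fkbp5, 0.12, −0.13 and −0.25. For Cdkn1a voom gave −0.34, −0.89 and −0.55, where the main fit gave −0.0056, −0.60 and −0.60. With each pool left out, Sgk1 ran from −0.27 to 0.21 in the first, −0.13 to 0.18 in the second and −0.19 to 0.30 in the last. Cdkn1a ran from −0.79 to 0.32, −1.05 to −0.43 and −1.05 to 0.18. Fkbp5 ran from 0.10 to 0.25, −0.34 to −0.07 and −0.53 to −0.27. The 18 group means recomputed on total counts or technical replicate a alone all moved by less than 1 SD.

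The number of genes past the threshold depended on the test. In the same order, DESeq2 called 56, 23 and 2, edgeR's likelihood ratio test 56, 21 and 1, and voom 68, 2 and 0, none of them Sgk1, Fkbp5 or Cdkn1a. Without the filter on low counts edgeR called 2 in the second. With a pool left out it called 0 to 6 in the second, 4 without pool 5 and 6 without pool 6 of Coc–Coc, and 0 in the others. The cause was not tested.

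Same-numbered pools were different rats, and their deviations correlated at −0.121, −0.032 and 0.083, so the numbers were not taken as pairs. With the replicate block edgeR called 0, 0 and 0 genes (1129, 1079 and 1046 at an unadjusted p below 0.05) and DESeq2 32, 31 and 4, and Sgk1 in the last comparison turned to 0.0033 and 3e-04. Fkbp5 in the last comparison was then −0.43 ± 0.10 in edgeR (SE, unadjusted p = 0.00216, adjusted p = 0.72). DESeq2 with the block gave −0.44 ± 0.11 for it (SE, unadjusted p = 0.000124, adjusted p = 0.207), also short of the threshold.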
